A study of Homo sapiens with 12 samples.

Results

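The genes described here are those of the unfolded protein response and the integrated stress response, measured in Granta 519, an established human mantle cell lymphoma (MCL) cell line that carries high levels of the transcription factor SOX11. The 41 members were taken by gene symbol or older name from the annotation of the Human Gene 1.0 ST array, and 40 of them had a probe set that lists a single gene, out of 18417 such genes and 33297 probe sets in all. Where a gene had several such probe sets, the one with the highest mean signal was used. PDIA3, the remaining member, is read only by probe sets that also list its pseudogene PDIA3P1, and its values are given apart from all counts. There were 12 arrays in 3 groups of 4. Untreated cells received neither siRNA nor electroporation as far as the labels tell. The control siRNA group received 100 pmol of a non-targeting siRNA per 4000000 cells by nucleofection (electroporation with program X-01 in solution C), and the SOX11 siRNA group received the same amount of siRNA against SOX11 in the same way. RNA was taken 20 hours after transfection, and no source used here gives the harvest time of the untreated cells. The siRNA itself, the electric pulse and the handling therefore differ together between transfected and untreated cells and cannot be told apart. All groups were grown in RPMI medium with fetal bovine serum. The values are linear PLIER signals, a summary of the brightness of all probes of a gene, and they were compared as log2(signal + 16) in limma with all 3 groups in the fit. A gene is called higher or lower where the p-value, adjusted over all 33297 probe sets, was under 0.05.

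When unfolded proteins build up in the endoplasmic reticulum (ER), the sensors ERN1 (IRE1), EIF2AK3 (PERK) and ATF6 start a programme that raises ER chaperones, folding enzymes and the machinery that removes misfolded proteins. PERK also belongs to the integrated stress response, in which kinases that sense ER stress, amino acid shortage, viral RNA or lack of haem phosphorylate the initiation factor eIF2, so that general translation falls while the transcription factor ATF4 is made and turns on genes for amino acid synthesis, amino acid import and feedback. Plasma cells, the antibody-secreting descendants of B cells, are known to need XBP1 and to run the ER programme at a high level.

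The ATF4 and the ER arms are known to be reached through different promoter letters, so the 300 bases around the start of each gene (250 before and 50 after it, RefSeq, GRCh38.p14) were searched on both strands for 4 motifs. The tables matched 38 of the 41 members with 54 windows, and SHMT2, SLC7A11 and PDIA3 had none. The C/EBP-ATF response element TGATGNAA was found in 7 of the 38 members (18.4%) and in 4.46% of all 27305 genes, or 3.62% of all windows. Its 7 holders were ASNS, CHAC1, ATF3, CEBPG, SLC3A2, SLC7A1 and HERPUD1, and no ER chaperone was among them. The ER stress element, CCAAT and CCACG with any 9 bases between them, was found in 7 members (18.4%), namely HSPA5, HSP90B1, CALR, CANX, CRELD2, PDIA6 and XBP1, and in 0.0916% of all genes. The second form, ATTGG and CCACG with any 1 base between them, was found in HYOU1, SDF2L1 and HERPUD1 (7.89% of members and 0.0696% of all genes). The unfolded protein response element TGACGTGG was found only in HYOU1 among the members (2.63%, against 0.927% of all genes), where it overlaps the upstream match of that second form. A match is a description of these letters and not evidence of a site in use. The 250 bases upstream of the start are shown for the genes of the arms compared below that hold a match (ASNS and CHAC1, HSPA5 and HSP90B1), for HYOU1, another chaperone that was called, and for HERPUD1, which holds elements of both kinds. TRIB3 had no match in its 3 windows. Capitals mark the motif matches, on either strand, and position -1 is the base just before the start. The matches begin at -68 in ASNS (chr7:97872409-97872658, minus strand), -209 in CHAC1 (chr15:40953221-40953470, plus strand), -66 in HSPA5 (chr9:125241344-125241593, minus strand), -194 and -89 in HSP90B1 (chr12:103930160-103930409, plus strand), -188, -185 and -79 in HYOU1 (chr11:119057206-119057455, minus strand), and -176 and -117 in HERPUD1 (chr16:56931892-56932141, plus strand).
ASNS: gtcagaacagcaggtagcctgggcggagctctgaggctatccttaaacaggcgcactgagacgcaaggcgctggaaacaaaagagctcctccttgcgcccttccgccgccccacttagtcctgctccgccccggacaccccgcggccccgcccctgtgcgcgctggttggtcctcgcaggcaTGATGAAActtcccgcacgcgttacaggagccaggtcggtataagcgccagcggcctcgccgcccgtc
CHAC1: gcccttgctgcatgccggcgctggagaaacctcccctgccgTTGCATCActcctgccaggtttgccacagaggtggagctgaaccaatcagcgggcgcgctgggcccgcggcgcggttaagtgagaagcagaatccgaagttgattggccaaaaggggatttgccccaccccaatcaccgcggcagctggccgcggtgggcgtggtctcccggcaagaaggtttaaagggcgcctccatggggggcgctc
HSPA5: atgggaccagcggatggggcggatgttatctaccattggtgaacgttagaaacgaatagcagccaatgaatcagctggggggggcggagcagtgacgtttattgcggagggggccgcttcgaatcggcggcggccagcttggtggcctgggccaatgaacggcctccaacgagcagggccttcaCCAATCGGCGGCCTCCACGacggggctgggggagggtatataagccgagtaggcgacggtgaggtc
HSP90B1: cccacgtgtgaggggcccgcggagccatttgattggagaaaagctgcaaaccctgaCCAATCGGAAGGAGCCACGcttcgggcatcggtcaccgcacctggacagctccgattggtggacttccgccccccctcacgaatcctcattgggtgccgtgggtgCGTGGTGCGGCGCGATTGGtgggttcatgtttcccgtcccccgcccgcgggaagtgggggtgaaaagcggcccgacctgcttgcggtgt
HYOU1: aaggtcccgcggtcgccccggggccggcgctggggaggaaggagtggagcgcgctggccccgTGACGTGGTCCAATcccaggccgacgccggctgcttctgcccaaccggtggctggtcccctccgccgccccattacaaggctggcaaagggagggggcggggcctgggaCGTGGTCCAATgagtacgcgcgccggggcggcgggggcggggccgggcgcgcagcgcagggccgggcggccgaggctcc
HERPUD1: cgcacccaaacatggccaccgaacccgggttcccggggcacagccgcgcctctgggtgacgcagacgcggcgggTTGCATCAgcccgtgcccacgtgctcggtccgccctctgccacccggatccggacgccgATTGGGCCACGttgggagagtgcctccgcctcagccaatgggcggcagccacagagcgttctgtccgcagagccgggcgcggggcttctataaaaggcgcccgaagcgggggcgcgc

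The knock-down was present on every labelled array. SOX11 had a signal of 188 to 229 with SOX11 siRNA, 1026 to 1191 with control siRNA and 978 to 1041 in untreated cells (log2 fold change -2.27 against control siRNA, adjusted p = 1.7e-09). The median signal of an array lay between 69.2 and 91.8. The B cell markers (6 of 6 measured) and the MCL markers (2 of 2) were above the median probe set, whereas 1 of 5 T cell, 0 of 3 NK cell, 2 of 5 myeloid, 1 of 4 fibroblast and 2 of 4 epithelial markers were, all of these at a mean signal of at most 256. Since an ER programme is a mark of plasma cells, their 4 markers (PRDM1, IRF4, SDC1 and TNFRSF17) were summed. The sum was 3233 to 3715 in untreated cells, 2682 to 3226 with control siRNA and 2175 to 3179 with SOX11 siRNA. All 4 were above the median probe set, IRF4 was the brightest, and none was called in any comparison. With SOX11 siRNA against untreated cells, the log2 fold change was -0.59 for TNFRSF17 (adjusted p = 0.0599), -0.28 for SDC1, -0.21 for IRF4 and -0.20 for PRDM1. Of the other markers besides SOX11, the B cell receptor partner CD22 was called lower with either siRNA than in untreated cells (log2 fold change -0.53 and -0.48), and KRT18 was called higher with SOX11 siRNA (0.57). In bulk RNA, fewer cells of a kind and less RNA per cell cannot be told apart. Whether the 4 untreated samples came from separate cultures is not stated, and p-values measure the spread between these samples only.

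No stress response gene passed the test between cells with SOX11 siRNA and cells with control siRNA. With SOX11 siRNA against control siRNA, 0 of 40 members were called higher, beside 0.00300% of all probe sets, and 0 were called lower, beside 0.180%. No member was separate from control siRNA on all 4 arrays, higher (0.601% of all probe sets) or lower (1.35%). At an unadjusted p under 0.05 there were 0 members as well, while 1418 of 33297 probe sets passed that limit, and the methods' analysis of variance also called 0. The fold changes lay between -0.20 (PHGDH, the enzyme that commits glucose carbon to serine) and 0.19 (TRIB3, a pseudokinase that dampens the response) on the log2 scale, with a median of 0.06 against 0.01 for all probe sets. HSPA5, which encodes the chaperone BiP, differed by 0.15 with a 95% interval of -0.11 to 0.40, and CHAC1, a glutathione-degrading enzyme switched on by ATF4, by -0.09 with an interval of -0.78 to 0.59. The interval for ATF4 itself was -0.34 to 0.19. The intervals therefore still allow modest differences. Each rests on a spread pooled over all groups of the fit, untreated cells included. For CHAC1 the width comes mostly from the untreated arrays, with signals of 192 to 886. Its signals were 93.7 to 117 with control siRNA and 83.2 to 122 with SOX11 siRNA. The width is thus no measure of the scatter within the siRNA groups. SLC7A11, DDIT4 and VLDLR were also more widely spread in untreated cells than in either siRNA group.

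**Figure D1:**
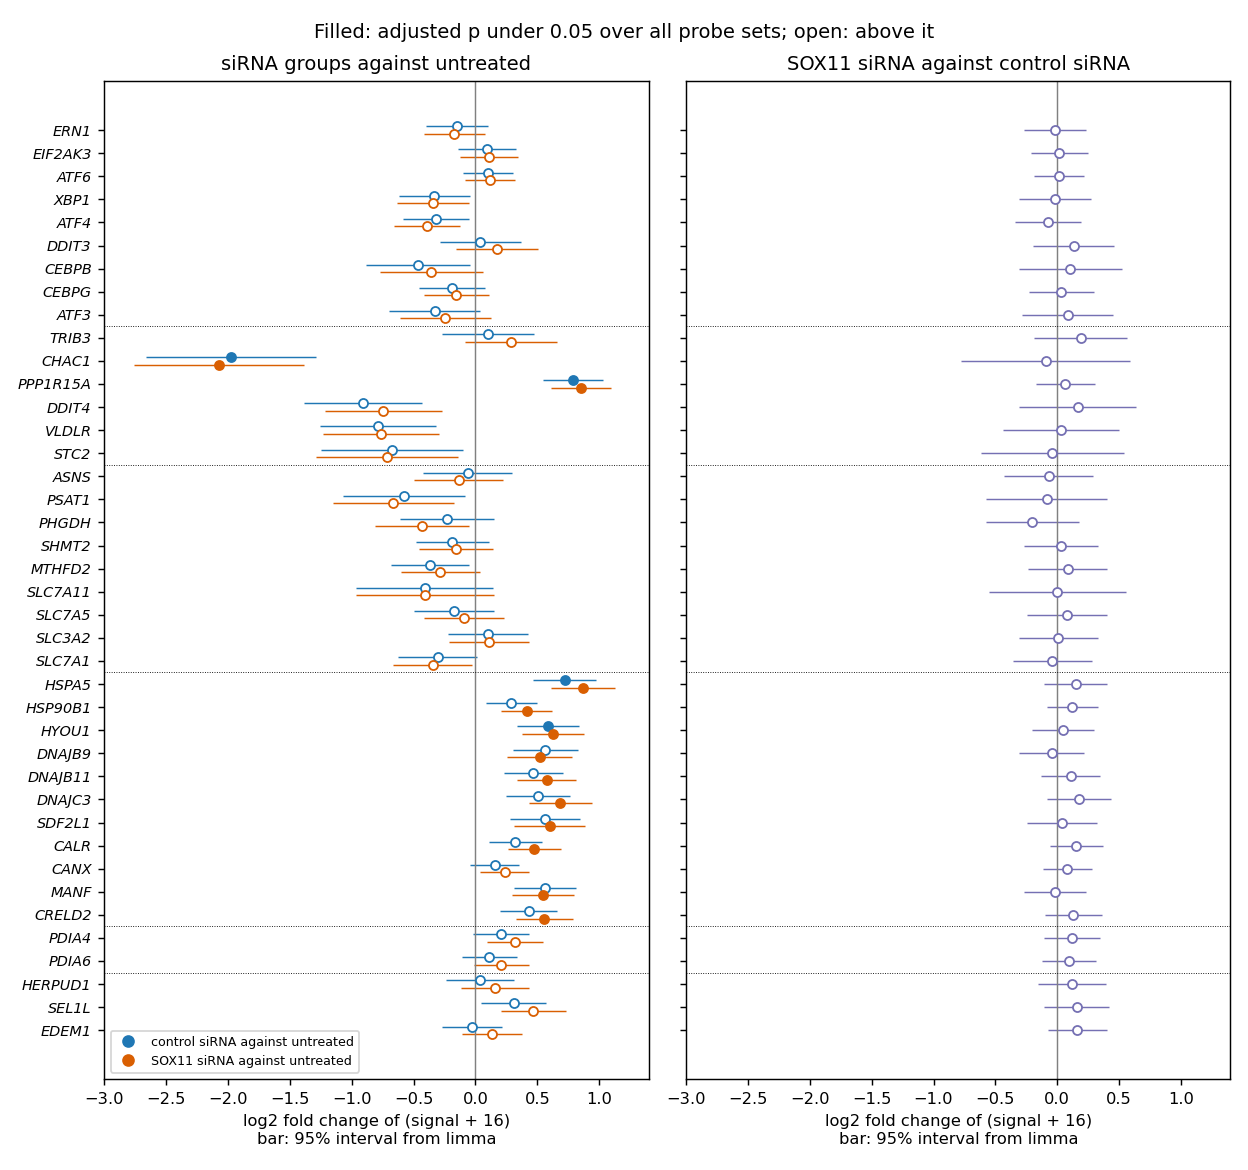
Log2 fold changes of (signal + 16) for the 40 members, with 95% intervals from limma, for both siRNA groups against untreated cells (left) and SOX11 siRNA against control siRNA (right). Dotted lines separate sensors and factors, effectors, amino acid genes, chaperones, disulfide isomerases and degradation genes, and filled points have an adjusted p under 0.05. All points on the right lie between -0.20 and 0.19, whereas on the left CHAC1 stands near -2 and the chaperones lie above 0.

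Transfected and untreated cells differed in 2 opposite ways. The feedback phosphatase subunit PPP1R15A (GADD34) and the ER chaperones were higher after transfection, whereas CHAC1 was lower, by 5.16-fold in the mean signal with control siRNA and 5.53-fold with SOX11 siRNA. With control siRNA, 3 of 40 members were called higher, beside 0.171% of all probe sets (PPP1R15A, HSPA5 and HYOU1), and 1 was called lower, beside 0.216% (CHAC1). All 4 control siRNA arrays lay above all 4 untreated arrays for 12 members (2.11% of all probe sets) and below them for 2, CHAC1 and DDIT4 (5.85%). With SOX11 siRNA, 11 members were called higher, beside 0.805% of all probe sets, and 1 lower, beside 1.60%. These were PPP1R15A and 10 of the 11 chaperones, and again CHAC1. The groups did not overlap for 13 members on the high side (2.30%) and for CHAC1 alone on the low side (5.54%). The median log2 fold change of the 40 members was 0.04 with control siRNA and 0.11 with SOX11 siRNA, against -0.06 for all probe sets in each comparison. Both comparisons use the same 4 untreated arrays and are therefore not independent. Centring each array on its median moved the median fold change of all probe sets in the SOX11 siRNA comparison from -0.06 to 0.04, and the calls over all probe sets from 268 higher and 532 lower to 938 and 383. With control siRNA the split moved from 57 higher and 72 lower to 126 and 56.

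**Figure D2:**
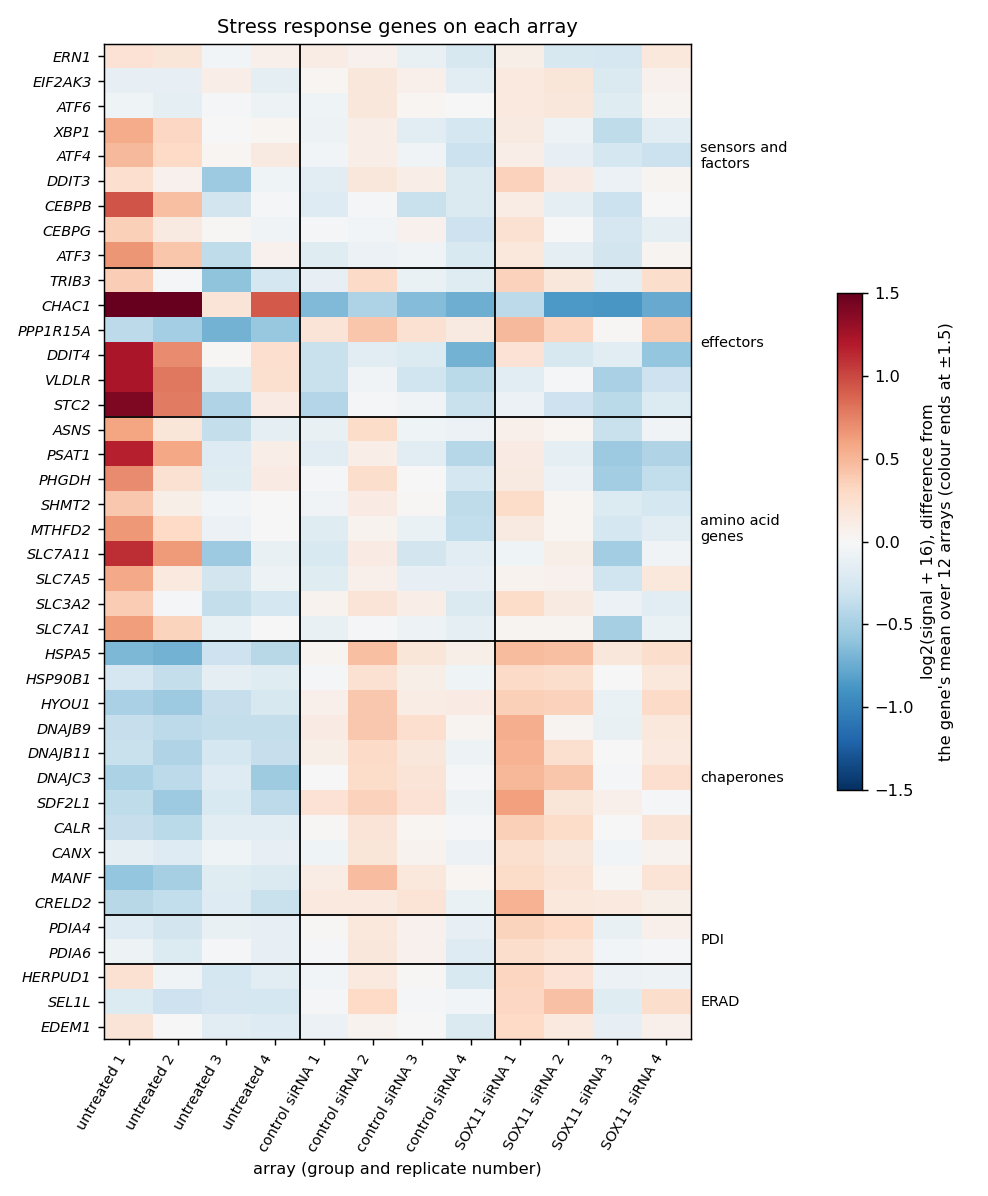
Log2(signal + 16) of each member on each of the 12 arrays, as the difference from the gene's own mean over all arrays. Columns are arrays by group and replicate number, rows are genes by role, and the colour ends at ±1.5. Chaperones are low on the 4 untreated arrays, and the effector and amino acid genes other than PPP1R15A are highest on untreated replicate 1.

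The sensors themselves were not called in any comparison. The signal of ERN1, whose RNase splices XBP1 RNA, was 393 to 474 in untreated cells, 341 to 440.3 with control siRNA and 338 to 453 with SOX11 siRNA. EIF2AK3 ranged from 377 to 449.8, from 368 to 471 and from 356 to 474 in the same order, and ATF6, which is cut in the Golgi to release a transcription factor, from 437 to 474, from 459 to 541 and from 422 to 541. All 3 overlapped between all groups. XBP1, the factor made from the spliced RNA, had signals of 2161, 1807, 1469 and 1488 in untreated cells, 1379, 1559, 1298 and 1210 with control siRNA and 1599, 1386, 1118 and 1306 with SOX11 siRNA. The highest value was that of untreated replicate 1, and the groups overlapped. Its difference was -0.33 (SE 0.14) with control siRNA and -0.35 (SE 0.14) with SOX11 siRNA, with adjusted p-values of 0.501 and 0.237. The array signal covers the gene as a whole, and splicing was not measured.

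ATF4, the central factor of the integrated stress response, had signals of 3917, 3447, 2855 and 3065 in untreated cells, 2715, 3002, 2694 and 2235 with control siRNA, and 2988, 2566, 2323 and 2228 with SOX11 siRNA. Untreated replicates 1 and 2 were highest, and the untreated range reached into that of both siRNA groups. The differences from untreated cells were -0.32 and -0.39 (SE 0.13 each), with adjusted p-values of 0.480 and 0.132. With SOX11 siRNA, ATF4 was called lower after quantile normalization (adjusted p = 0.0239) and among 1-symbol probe sets alone (0.0491). These values are from the brighter of its 2 single-gene probe sets, and with the median over both it was not called. ATF4 is controlled largely at translation, which RNA levels do not show. Its partners were not called either. CEBPB and CEBPG, bZIP proteins that pair with ATF4, differed from untreated cells by -0.46 and -0.19 with control siRNA and by -0.36 and -0.16 with SOX11 siRNA. ATF3, a repressor induced by ATF4, differed by -0.33 and -0.24, and DDIT3 (CHOP), the factor tied to cell death in prolonged stress, by 0.04 and 0.17. The 9 sensors and factors had 0 calls in all 3 comparisons.

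CHAC1 had the largest difference of the 40 members in both comparisons with untreated cells. Its signal was 886, 703, 192 and 329 in untreated cells, 98.9, 117, 99.6 and 93.7 with control siRNA, and 122, 84.5, 83.2 and 91.7 with SOX11 siRNA. Every untreated array lay above every transfected one, but the untreated arrays differed 4.63-fold among themselves. The log2 fold change was -1.98 (SE 0.32, adjusted p = 0.0104) with control siRNA and -2.07 (SE 0.32, adjusted p = 0.00253) with SOX11 siRNA. This was the lowest fold change of the 33297 probe sets with control siRNA and the second lowest with SOX11 siRNA. The call with control siRNA was lost with log2(signal + 1) (adjusted p = 0.0596), with a trend and robust prior (0.0594) and in the methods' analysis of variance (0.163), and the call with SOX11 siRNA was lost in the last of these (0.0525).

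PPP1R15A, which recruits the phosphatase that reverses eIF2 phosphorylation, moved the other way. Its signal was 269.6, 247, 213 and 238 in untreated cells, 412, 485, 423 and 396 with control siRNA, and 511, 453, 364 and 478 with SOX11 siRNA. The lowest transfected array stood above the highest untreated one. The log2 fold changes were 0.79 (SE 0.11, adjusted p = 0.00468) and 0.85 (SE 0.11, adjusted p = 0.000643), and both calls held in all 24 alternative fits at an adjusted p under 0.05. The methods set a stricter threshold for their analysis of variance (FDR 0.002 and a fold change of 1.5), which was put on the limma p-values here. At this threshold the call with SOX11 siRNA held and that with control siRNA did not. PPP1R15A was thus called in the direction opposite to CHAC1, although both are counted among the targets of ATF4.

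The other effectors were not called, although DDIT4 and VLDLR passed under several other settings. TRIB3 had signals of 266, 201, 128 and 166 in untreated cells, 186, 252, 188 and 177 with control siRNA, and 263, 231, 182 and 247 with SOX11 siRNA. The 3 groups overlapped, and the differences were 0.10 (SE 0.18) and 0.29 (SE 0.18). DDIT4 (REDD1), an inhibitor of mTORC1 signalling, had 929.9, 646, 392 and 467 in untreated cells, 305, 343, 334 and 230.5 with control siRNA, and 454, 325, 345 and 254 with SOX11 siRNA. The control siRNA arrays were all below the untreated ones, with a difference of -0.91 (SE 0.22, adjusted p = 0.113), while SOX11 siRNA replicate 1 overlapped (difference -0.74, adjusted p = 0.103). VLDLR, a lipoprotein receptor under ATF4 control, ranged from 150.4 to 426 in untreated cells against 127 to 166 with control siRNA and 119 to 171 with SOX11 siRNA, with differences of -0.79 and -0.76 (adjusted p = 0.187 and 0.0917). STC2, a secreted glycoprotein, was dim, at 15.2 to 96.1, 15.5 to 25.95 and 16.1 to 24.0 in the 3 groups. Without untreated replicate 3, VLDLR was called with control siRNA (adjusted p = 0.0349), and DDIT4 (0.0466), VLDLR (0.0138) and STC2 (0.0304) were called lower with SOX11 siRNA. DDIT4 and VLDLR were also called lower without dim probe sets (adjusted p = 0.0153 and 0.0364 with control siRNA, 0.0218 and 0.0179 with SOX11 siRNA), among 1-symbol probe sets and with the median over a gene's probe sets, and with array weights for control siRNA (0.0358 and 0.0428). STC2 was called lower with SOX11 siRNA among 1-symbol probe sets (0.0446) and with the gene median (0.0336).

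**Figure D3:**
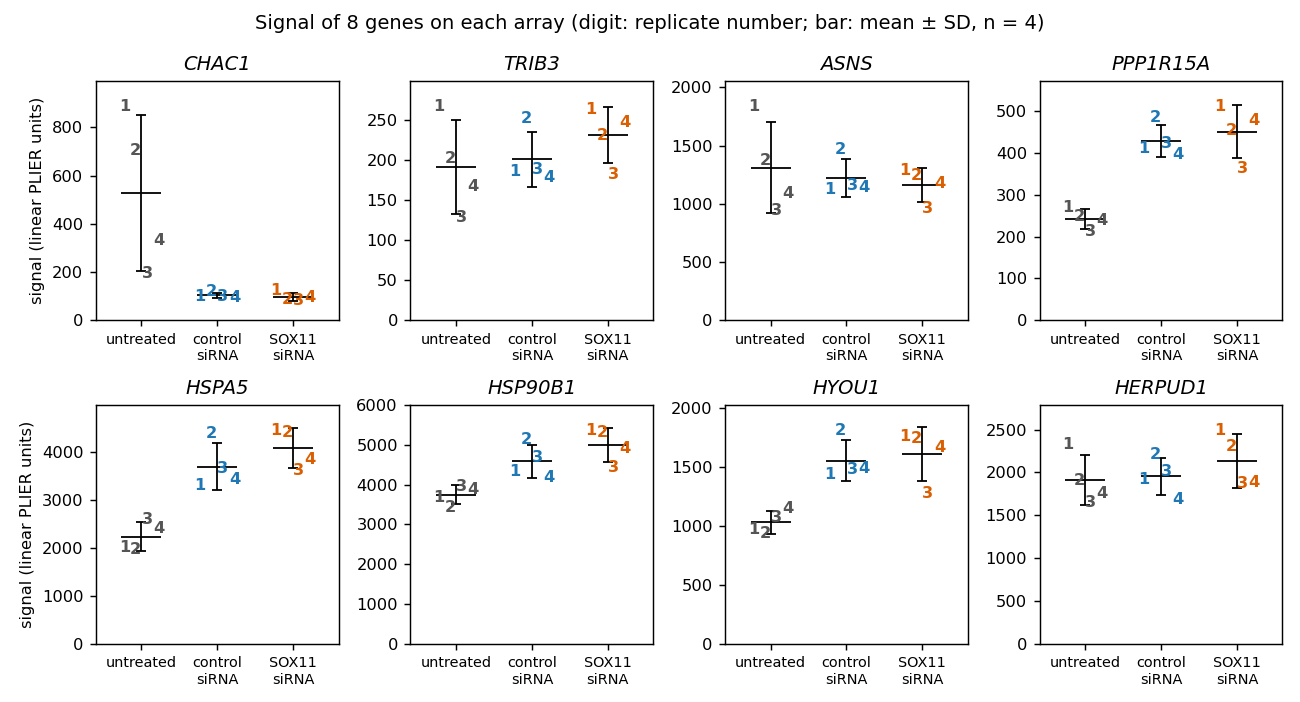
Linear PLIER signal of 8 members on each array, drawn as the replicate number, with the mean and SD of each group (n = 4). The axes start at 0 and differ between genes, since probe sets of different genes cannot be compared in level. CHAC1 lies at 192 to 886 in untreated cells and at 122 or less on the transfected arrays, while HSPA5 and PPP1R15A stand higher on all 8 transfected arrays.

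The genes for amino acid synthesis and transport gave 0 calls of 9 in any comparison. ASNS, asparagine synthetase and the textbook target of amino acid shortage, had signals of 1835, 1374, 943 and 1091 in untreated cells, 1122, 1466, 1161 and 1136 with control siRNA, and 1282, 1242, 957 and 1170 with SOX11 siRNA. The untreated values covered the whole range of the transfected ones and went past it at both ends. The differences were -0.06 (SE 0.17) with control siRNA, with a 95% interval of -0.42 to 0.30, and -0.13 (SE 0.17) with SOX11 siRNA. Of the serine and one-carbon enzymes, PSAT1 differed by -0.58 and -0.66 in these comparisons, PHGDH by -0.23 and -0.43, MTHFD2 by -0.37 and -0.28 and SHMT2 by -0.19 and -0.16, with adjusted p-values of at least 0.169. PSAT1 was called lower with SOX11 siRNA without dim probe sets (adjusted p = 0.0490), among 1-symbol probe sets (0.0301) and with the gene median (0.0222). Of the transporters, SLC7A11 (cystine import) differed by -0.41 in each, the arginine carrier SLC7A1 by -0.31 and -0.35, SLC7A5 (leucine import) by -0.18 and -0.09, and its heavy chain SLC3A2 by 0.10 and 0.11. Over the 9 genes the median was -0.23 with control siRNA and -0.28 with SOX11 siRNA, against -0.06 for all probe sets. In each comparison 8 of 9 lay below 0, where only 32.0% and 35.3% of all probe sets lay above 0.

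The ER chaperones were higher on the transfected arrays as a group, and only CANX overlapped with untreated cells, on the control siRNA arrays. HSPA5 (BiP), the Hsp70 of the ER that also holds the sensors inactive, had signals of 1997, 1955, 2579 and 2397 in untreated cells, 3298, 4382, 3647 and 3419 with control siRNA, and 4446, 4401, 3616 and 3847 with SOX11 siRNA. All transfected arrays were above all untreated ones. The mean rose from 2232 ± 305 (SD, n = 4) to 3687 ± 486 with control siRNA and 4078 ± 411 with SOX11 siRNA, or 1.65-fold and 1.83-fold. The log2 fold changes were 0.72 (SE 0.12, adjusted p = 0.0117) and 0.87 (SE 0.12, adjusted p = 0.000939).

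HSP90B1 (GRP94), the Hsp90 of the ER, had signals of 3683, 3433, 3966 and 3889 in untreated cells, 4341, 5138, 4684 and 4191 with control siRNA, and 5367, 5302, 4424 and 4901 with SOX11 siRNA. Again the untreated arrays were all lowest, but the step was smaller. The difference was 0.29 (SE 0.10) with control siRNA, which did not pass the test (adjusted p = 0.345), and 0.41 (SE 0.10, adjusted p = 0.0356) with SOX11 siRNA, which did. HYOU1, a large Hsp70-like partner of BiP, had 970.2, 934, 1071 and 1149, then 1441, 1813, 1479 and 1487, and then 1761, 1746, 1278 and 1664 in the same order of groups. It rose by 0.58 (SE 0.12, adjusted p = 0.0452) and 0.63 (SE 0.12, adjusted p = 0.0101).

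The remaining chaperones followed. The J-domain proteins DNAJB9, DNAJB11 and DNAJC3, which assist or restrain BiP and PERK, rose by 0.52, 0.58 and 0.69 with SOX11 siRNA (adjusted p = 0.0376, 0.0129 and 0.00670) and differed by 0.56, 0.47 and 0.51 with control siRNA (adjusted p = 0.0662, 0.104 and 0.0985). SDF2L1, a cofactor of these proteins, rose by 0.60 with SOX11 siRNA, and MANF and CRELD2, small ER proteins released during stress, by 0.54 and 0.56. Calreticulin (CALR), a lectin chaperone, rose by 0.48, whereas its membrane-bound relative calnexin (CANX) differed by 0.24 (adjusted p = 0.236) and was the only chaperone not called. With control siRNA these 5 differed by 0.56, 0.56, 0.43, 0.32 and 0.15. Over the 11 chaperones the median fold change was 0.51 with control siRNA and 0.56 with SOX11 siRNA, against -0.06 for all probe sets, and the groups did not overlap for 10 and for 11 of them. Of the 10 called, 6 had an ER stress element in the promoter window and 4 (DNAJB9, DNAJB11, DNAJC3 and MANF) did not, while CANX had one.

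Which chaperones passed depended on the fit and on single arrays. With SOX11 siRNA, HSP90B1, DNAJB9, SDF2L1 and MANF were not called with log2(signal + 1) (adjusted p = 0.0738, 0.0835, 0.0707 and 0.0627) or by the methods' analysis of variance (0.0553, 0.106, 0.0975 and 0.0782), and HSP90B1, DNAJB9, SDF2L1 and CALR were not called in the fit of the 8 arrays compared (0.0769, 0.0780, 0.0562 and 0.0573). With control siRNA, HSPA5 and HYOU1 were not called with log2(signal + 1) (0.0580 and 0.125) or by the analysis of variance (0.0860 and 0.160). After quantile normalization the calls covered 10 of the 11 chaperones with control siRNA (CANX was not called) and all 11 with SOX11 siRNA (CANX at 0.0309). The calls of HSPA5, HYOU1 and DNAJC3 with SOX11 siRNA held in all 24 alternative fits at an adjusted p under 0.05, and that of HSPA5 also at the stricter threshold of the methods, but the number of members called higher there was 5 without untreated replicate 1 or 2, 6 without SOX11 siRNA replicate 1 or 2, and 13 without SOX11 siRNA replicate 3. Without untreated replicate 1, the adjusted p was 0.111 for HSP90B1, 0.0972 for DNAJB9, 0.0741 for SDF2L1, 0.0752 for CALR, 0.0962 for MANF and 0.0522 for CRELD2. Without untreated replicate 2 it was 0.126, 0.104, 0.0934, 0.0753 and 0.0849 for the first 5 of these, and 0.0505 for DNAJB11. HSP90B1 and DNAJB9 were also not called without untreated replicate 3 or 4, control siRNA replicate 1 or 3, or SOX11 siRNA replicate 1, 2 or 4 (adjusted p of 0.0512 to 0.101 and 0.0516 to 0.0890). SDF2L1, CALR and MANF were not called without SOX11 siRNA replicate 1 (0.0535, 0.0512 and 0.0600) or 2 (0.0577, 0.0585 and 0.0606), nor SDF2L1 without untreated replicate 4 (0.0704). With control siRNA, HSPA5 missed the threshold without untreated replicate 1 (0.0532) or 2 (0.0517), leaving 1 member called higher, and HYOU1 missed it in 11 of 12 such fits, the exception being that without SOX11 siRNA replicate 3 (adjusted p up to 0.150). Without SOX11 siRNA replicate 3, 6 members were called higher with control siRNA.

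The folding oxidases and the degradation genes were intermediate. The disulfide isomerases PDIA4 and PDIA6 differed by 0.20 and 0.11 with control siRNA and by 0.32 and 0.21 with SOX11 siRNA (adjusted p = 0.147 and 0.370), and were not called. PDIA4 was called higher with SOX11 siRNA after quantile normalization (0.00650), with median centring (0.0369) and with array weights (0.0388). PDIA3 could be read only with its pseudogene, by 2 probe sets. The brighter gave 2156, 2135, 2642 and 2356 in untreated cells, 2643, 3273, 3156 and 2430 with control siRNA, and 3740, 3325, 2878 and 3068 with SOX11 siRNA. Its adjusted p with SOX11 siRNA was 0.0436 (log2 fold change 0.48) and that of the other probe set 0.0528 (0.47), and the share of the pseudogene in either is unknown. HERPUD1, a scaffold of the degradation complex that holds elements of both arms in its promoter window, lay at 1654 to 2327, 1688 to 2205 and 1865 to 2491 in untreated, control siRNA and SOX11 siRNA cells and was not called. SEL1L, the adaptor of the ubiquitin ligase HRD1, was above the untreated range (802 to 857) on all transfected arrays (873.8 to 1359), with differences of 0.31 and 0.47 (adjusted p = 0.488 and 0.0623). With SOX11 siRNA it was called higher under 7 other settings without a replicate block, leave-one-out fits apart, with adjusted p-values of 0.00536 to 0.0371. EDEM1, which hands glycoproteins to that pathway, differed by -0.03 and 0.13.

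The arms were then set against each other on each array. For each gene the difference from its own mean over the 12 arrays was taken, and these were averaged over CHAC1, ASNS and TRIB3 for the ATF4 amino acid arm and over HSPA5 and HSP90B1 for the ER chaperone arm. The ATF4 arm minus the ER arm was 1.56, 1.25, -0.03 and 0.47 in untreated cells, -0.31, -0.30, -0.41 and -0.35 with control siRNA, and -0.37, -0.58, -0.54 and -0.39 with SOX11 siRNA (log2). All 8 transfected arrays lay below all 4 untreated ones, and the gap to untreated replicate 3 was small. The group means were 0.81 ± 0.72, -0.34 ± 0.05 and -0.47 ± 0.11 (SD, n = 4), which differ from untreated cells by -1.15 and -1.28 and between the siRNA groups by -0.13. The ER arm alone was -0.38 ± 0.14 in untreated cells, 0.12 ± 0.15 with control siRNA and 0.26 ± 0.14 with SOX11 siRNA, and the ATF4 arm alone 0.43 ± 0.59, -0.22 ± 0.17 and -0.21 ± 0.19. CHAC1 carried most of this difference. With ASNS and TRIB3 alone, a choice made after seeing the data, the same differences from untreated cells were -0.49 and -0.56. ASNS and TRIB3 did not fall together, since ASNS differed by -0.06 and -0.13 and TRIB3 by 0.10 and 0.29. The difference left without CHAC1 thus lay in the rise of the ER arm. No p is given for these scores because their genes were chosen with results known.

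**Figure D4:**
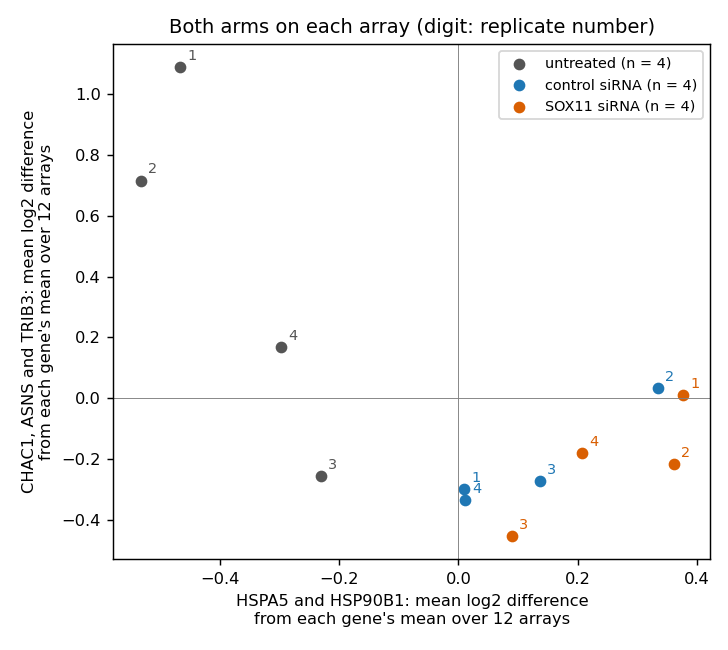
Mean log2 difference from each gene's own mean over 12 arrays for CHAC1, ASNS and TRIB3 (vertical) against that for HSPA5 and HSP90B1 (horizontal), 1 point per array with its replicate number. The 8 transfected arrays lie between 0.01 and 0.38 on the horizontal axis and the 4 untreated arrays between -0.53 and -0.23, where they spread from -0.26 to 1.09 vertically.

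The untreated arrays differed among themselves in the effector and amino acid genes. All 15 of the 15 effector and amino acid genes had their signals in the order replicate 1, 2, 4, 3 from high to low, an order found in 8.16% of all probe sets. With median centring 13 of 15 kept this order (4.10% of all probe sets), and with quantile normalization 15 (6.34%). The same order was found in 6 of the 9 sensors and factors, 11 of 20 other ATF4 target genes and 5 of 9 aminoacyl-tRNA synthetases. Over the 15 genes, replicate 1 exceeded replicate 3 by a median of 0.95 on the log2 scale, from 0.32 to 2.12. The 15 are co-regulated genes read from the same RNA and not independent observations. Of the 13 chaperones and disulfide isomerases, 0 had this order, 10 were highest on replicate 3 and 10 were lowest on replicate 2. Of 16649 probe sets at or above the median signal, 5479 were highest on replicate 3 and 6694 lowest on replicate 2. With median centring 12 of the 13 were highest on replicate 3 and 10 lowest on replicate 2. With quantile normalization 9 were highest on replicate 3, 8 lowest on replicate 1 and 3 lowest on replicate 2. Whether replicate number follows an order in time is not stated.

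By their median, the ATF4 targets were more widely spread in untreated cells than after transfection. Exceptions were SHMT2 (SD 0.197 untreated, 0.215 with control siRNA, 0.246 with SOX11 siRNA) and PPP1R15A (0.132, 0.123 and 0.204). The median SD of the 15 genes was 0.41 in untreated cells, 0.18 with control siRNA and 0.22 with SOX11 siRNA (log2), beside 0.10, 0.14 and 0.18 for the probe sets at or above the median signal. For the 13 chaperones and isomerases it was 0.09, 0.15 and 0.20. Array medians of the untreated replicates were 89.0, 90.5, 81.1 and 85.6, so replicate 3, lowest in the ATF4 targets, also had the lowest array median. Their mean signals were 425.8, 397.9, 425.3 and 422.7, and by the mean replicate 2 was lowest. The order held for 13 and 15 of the 15 genes under the other scalings given above, and the culture conditions of the single replicates are not given.

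Of 86 further genes of the same pathways outside the 41 members, 78 were measured. With control siRNA 2 were called higher, beside 0.171% of all probe sets, and 0 lower, beside 0.216%. With SOX11 siRNA 7 were called higher, beside 0.805%, and 1 lower, a share close to the 1.60% of all probe sets, and between the siRNA groups 0 were called. GDF15, a secreted stress cytokine induced by ATF4 and CHOP, had signals of 68.3 to 76.3 in untreated cells, 124 to 138 with control siRNA and 114 to 147 with SOX11 siRNA. It rose by 0.74 and 0.75 (adjusted p = 0.00155 and 0.000349), against the direction of CHAC1, while CTH, which makes cysteine, fell by 0.56 with SOX11 siRNA (adjusted p = 0.00519) from 30.5 to 41.3 to 14.8 to 21.9. ALDH1L2, a mitochondrial folate enzyme, rose by 0.64 with SOX11 siRNA (adjusted p = 0.0175). SEC24D, a coat protein of vesicles that leave the ER, rose by 0.85 and 0.88 (adjusted p = 0.0104 and 0.00277). FKBP11, a prolyl isomerase of secretory cells, and SEC11C, a signal peptidase subunit, rose by 0.81 and 0.55 with SOX11 siRNA (adjusted p = 0.00208 and 0.0134). The remaining calls with SOX11 siRNA were FKBP2 and SRPRB. Among 20 other ATF4 targets the median difference was -0.10 with control siRNA and -0.15 with SOX11 siRNA, and among 25 other ER folding and translocation genes 0.16 and 0.23. The aminoacyl-tRNA synthetases (9 measured) had 0 calls and medians of -0.11 and -0.02, and the eIF2 kinases, eIF2 and its exchange factor (12) had 0 calls and medians of -0.02 and 0.13. The 12 other degradation genes had 0 calls, with medians of 0.19 and 0.31. Of the genes with the smallest p of each list, LARS, TARS and EPRS (tRNA synthetases), EIF2B1 and EIF2B2 (exchange factor), VIMP and ERLEC1 (degradation) had adjusted p-values of at least 0.0777. KLHL24 had the smallest p of all 78 between the siRNA groups (log2 fold change -0.42, adjusted p = 0.670). All its SOX11 siRNA arrays (231 to 350.3) lay below all its control siRNA arrays (381 to 481). Of the 78 genes, 1 was separate in this way on the low side, a share close to the 1.35% of all probe sets.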

How the data were processed

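The authors deposited linear intensity values, 1 PLIER signal per probe set on each array. Per the file headers and labels, Affymetrix Expression Console 1.1 subtracted a background read from probes of like GC content and applied a normalization named Global Median. The array medians of the deposited signals still ran from 69.2 to 91.8. The RMA values that the paper's own statistics used were not analysed here. The 2 deposited tables of signals differed in 0 cells. Neither their 6 columns of fold changes and p-values nor their 6 columns of group means were used. Probe sets were named from the platform annotation, in which 19460 list 1 gene symbol, 1754 several and 12083 none. A second probe set of PHGDH, shared with MZT2B, was not used.

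Here log2(value + 16) of all 33297 probe sets was fitted by lmFit and eBayes of limma 3.58.1 (R 4.3.3), the 3 groups together, with no filter, and p-values were adjusted by the method of Benjamini and Hochberg. The added 16 makes fold changes of dim genes smaller. The script was checked on simulated data. All 41 members are described, and other pathway genes were named where called (up to 3 per list) or as the smallest p of their list. The members, gene lists and tests were chosen with earlier results of these data known. Alternatives were other normalizations, an added 1 in place of 16, filters on probe sets, other fits, and the methods' one-way analysis of variance. Further alternatives were the methods' threshold (FDR 0.002, fold change 1.5), put on the limma p-values, and leaving out each array. Promoter windows are from RefSeq (GRCh38.p14). Read depth does not apply to arrays, and 4 arrays per group limit the precision.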

Additional observations from a re-analysis of the deposited data

Results flagged for a closer look

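Of 120 groups of 4 arrays (40 members in 3 groups), 6 held an array that stood apart from the other 3 by Dixon's test at the 95% level, which chance alone gives in about 1 of 20 groups. In 4 of the 6 it was control siRNA replicate 2. Control siRNA replicate 2 had signals of 251.73 for TRIB3 (177.21 to 187.99 on the other 3), 1465.74 for ASNS (1122.49 to 1160.9), 1812.95 for HYOU1 (1441.03 to 1486.75) and 1222.36 for SEL1L (969.72 to 976.17). That array also had the highest mean signal of its group, 452.7 against 372.7 to 417.3. SOX11 siRNA replicate 1 had 369.54 for CRELD2 against 270.93 to 283.95, and untreated replicate 3 had 449.75 for EIF2AK3 against 377.19 to 383.28. Each of the 6 was the highest value of its group.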

How the results depend on the processing

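Between the siRNA groups 0 members were called in every setting run, leave-one-out fits included. With control siRNA against untreated cells, the members called higher (3) became 11 with quantile normalization, 7 with median centring, 9 without dim probe sets, 9 with 1-symbol probe sets, 9 with array weights, 9 with the median over a gene's probe sets, 6 in the fit of the 8 arrays compared, 5 with a trend and robust prior, 1 with log2(value + 1), 1 by the methods' analysis of variance and 0 at their threshold. Those called lower (1) became 3 without dim probe sets, with 1-symbol probe sets, array weights or the gene median, and 0 with log2(value + 1), the analysis of variance, the trend and robust prior or the methods' threshold. With SOX11 siRNA against untreated cells, the members called higher (11) became 7 with log2(value + 1), the 8-array fit or the analysis of variance and 2 at the methods' threshold (PPP1R15A and HSPA5), and at most 14, with quantile normalization, where CANX, PDIA4 and SEL1L were added. Those called lower (1) became 2 with quantile normalization, 4 without dim probe sets, 6 with 1-symbol probe sets, 5 with the gene median and 0 by the analysis of variance or the methods' threshold. Leaving out each array gave 1 to 6 higher and 1 to 2 lower with control siRNA, and 5 to 13 higher and 1 to 4 lower with SOX11 siRNA. The contrast between the arms ranged from -1.43 to -0.90 with control siRNA, from -1.56 to -1.03 with SOX11 siRNA and from -0.16 to -0.09 between them, and without CHAC1 it was -0.488 and -0.5643 against untreated cells. No call and no contrast between the arms changed direction, and the causes of these shifts were not tested. Some uncalled fold changes near 0 did change sign between settings. With control siRNA, TRIB3 ran from -0.06 to 0.26, ASNS from -0.21 to 0.11 and DDIT3 from -0.12 to 0.15.

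The labels number the replicates in each group but do not say whether equal numbers were handled together. Arrays with the same number had deviations correlated between -0.315 and 0.446 over 12 pairs, with 5 above 0.1. Other pairs of arrays from different groups lay between -0.425 and 0.322. Such correlations cannot decide whether the arrays are paired, and the main fit used no replicate block. With the replicate block, 2 members were called higher and 2 lower with control siRNA, and 9 higher and 3 lower with SOX11 siRNA. Under it DDIT4 was called lower with either siRNA (adjusted p = 0.0355 and 0.0351) and VLDLR with SOX11 siRNA (0.0402), and HYOU1 with control siRNA (0.0668) and HSP90B1 and DNAJB9 with SOX11 siRNA (0.0711 and 0.0589) were not called. With the replicate block and quantile normalization there were 12 higher and 1 lower, and 14 higher and 3 lower. The 3 called lower with SOX11 siRNA were CHAC1, ATF4 (adjusted p = 0.0152) and XBP1 (0.0396). Quantile normalization gave 352 probe sets higher and 292 lower with control siRNA and 1266 and 1112 with SOX11 siRNA. STC2 could not be tested without dim probe sets. Signal over background limits the precision of dim genes such as STC2 and CTH.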
